A study of Homo sapiens with 9 samples.

Results

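The 31 genes described here are the amino acid and ATF4 stress genes: the transcription factors, feedback proteins, amino acid enzymes and transporters, aminoacyl-tRNA synthetases and secreted factors that are widely used to read the integrated stress response. They were followed by ATAC-seq, which measures how readily the Tn5 transposase cuts chromatin, in SK-N-BE(2)c, an established human neuroblastoma cell line. A region of the deposited count table was taken as a gene-end region when its centre lay within 1 kb of either GRCh38 end of a listed gene, and as a flanking region when it lay elsewhere in the gene or within 50 kb of it. By this rule 29 of the 31 genes had a gene-end region, with 35 such regions in all and 272 flanking regions, of 148797 regions in the table. ATF3 and NUPR1 had none, their nearest regions lying 1.8 kb and 2.42 kb from a gene end.

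All cells had been transfected with 100 nM antisense oligonucleotide using a lipid reagent and were collected after 48 h. The 3 groups of 3 libraries were NCA, the negative control oligonucleotide, and ASO2 and ASO10, which both target the long noncoding RNA NESPR. There was no untransfected group, so the transfection is common to all 9 libraries, and the study used 1 cell line for this assay. Nothing in the labels says whether the 3 libraries of a group came from separate cultures, so p-values measure only the spread between these libraries, which may be technical. The 3 NCA libraries serve as control for both oligonucleotides, and the direct comparison reuses the ASO2 and ASO10 libraries, so the 3 comparisons are not independent.

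Library totals ran from 7293565 to 10948569 counts. Of the neuroblastoma and sympathetic lineage genes checked (PHOX2A, HAND2, GATA3, ISL1, DBH and MYCN), 5 of 6 had a gene-end region, with means of 4.84 to 33.5 CPM (each count as a share of its library's scaled total), and the nearest region to MYCN lay 1.14 kb from its end. None of the 6 genes taken to mark other cell types (PTPRC, CD3E, ALB, EPCAM, MYOD1 and TTN) had one.

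In the integrated stress response, kinases such as PERK (encoded by EIF2AK3) phosphorylate the translation factor eIF2 on its alpha subunit. This lowers general protein synthesis while favouring translation of ATF4. ATF4 then pairs with C/EBP proteins on composite DNA elements at genes for amino acid synthesis, uptake and tRNA charging, and it also drives CHOP (DDIT3), TRIB3 and CHAC1. GADD34 (PPP1R15A) closes the loop by helping to remove the phosphate from eIF2. In neuroblastoma with MYCN amplification, serine and one-carbon enzymes of this program are known for their high expression.

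The sequences that this program is known to use were searched in the RefSeq promoters (GRCh38.p14, 250 bases before to 50 after each listed start) of the 26 listed genes that could be matched, on both strands. The core of the C/EBP-ATF response element, written TGATGNAA, was in 8 of the 42 promoter windows of these genes, 1 window in each of 8 genes, and in 3.62% of all 35116 promoter windows. The cyclic AMP response element TGACGTCA was in 1 of the 42 windows and 1.85% of all windows, and the AP-1 site TGACTCA in 4 of the 42, from 3 genes, and 4.95% of all windows. The DDIT3 windows with an AP-1 match overlap and share 1 site. The composite endoplasmic reticulum stress element was in none of the 42 and 0.0769% of all windows. The stress-gene promoters were richer in G and C, with a median of 65.3% against 58.7%. The stretches below, 30 bases each in the direction of the gene, show the matches in capitals for some of the genes whose values are given later. A match is only a description of the letters.

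ASNS, chr7:97872458-97872487: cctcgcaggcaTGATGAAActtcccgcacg
CEBPG, chr19:33374060-33374089: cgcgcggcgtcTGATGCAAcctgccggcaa
CHAC1, chr15:40953251-40953280: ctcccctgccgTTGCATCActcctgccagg
GARS1, chr7:30594834-30594863: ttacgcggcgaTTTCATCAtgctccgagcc
CARS1, chr11:3057407-3057436: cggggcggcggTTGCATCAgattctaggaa
PPP1R15A, chr19:48872352-48872381: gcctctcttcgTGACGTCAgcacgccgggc
DDIT3, chr12:57520735-57520764: gcgcgcgcaTGACTCAcccacctcctccgt

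The CEBPG, CHAC1, GARS1, CARS1, PPP1R15A and DDIT3 matches lay inside a gene-end region of the same gene. The ASNS match lay inside a flanking region, since the RefSeq starts listed for ASNS are well inside the gene span used by the rule.

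At the gene ends, accessibility rose at 1 gene under ASO10, DDIT4, and differences from NCA at the other genes did not pass the test under either oligonucleotide. None of the 35 gene-end regions passed the test under ASO2 (edgeR's quasi-likelihood test, Benjamini-Hochberg adjusted p under 0.05 over 119417 tested regions). DESeq2 also called 0, and 4 regions (11.4%) had an unadjusted p under 0.05, near the 10.4% of other gene-end regions. The test called 1.54% of the other gene-end regions and 5.6% of all tested regions under ASO2. Under ASO10, 1 of the 35 passed, at DDIT4, and it was higher. Higher calls under ASO10 made up 2.02% of the other gene-end regions, 3.64% of those of 4 to 6 log2 CPM and 0.876% of all tested regions, so 1 of 35 is near the background. DDIT4 included, 16 of the 35 regions had an unadjusted p under 0.05 under ASO10, all higher (45.7%, against 14.3% higher at that level among other gene-end regions). Only DDIT4 of these reached the adjusted threshold. The 14.3% is over gene ends of every abundance, and the share at this level among those of like abundance was not computed.

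The size of the differences is best read beside gene ends in general. The median log2 difference of the 35 regions was -0.06 under ASO2 and 0.23 under ASO10, against -0.05 and 0.09 for the 13495 other gene-end regions tested. Under ASO10, 29 of the 35 regions (82.9%) were above zero, as were 62.5% of the others, and under ASO2 15 (42.9%) were above zero, against 40.3%. Library by library, the median of the 35 regions relative to the NCA mean was 0.26, 0.17 and 0.21 in the ASO10 libraries, 0.07, -0.05 and 0.03 in the NCA libraries, and -0.01, 0.06 and -0.08 in the ASO2 libraries. All 3 ASO10 libraries were thus above all 6 others. The same medians over the other gene-end regions were 0.12, 0.06 and 0.09 in the ASO10 libraries. They were 0.025, -0.04 and 0.023 in the NCA libraries and -0.038, 0.041 and -0.14 in the ASO2 libraries. Gene ends in general thus showed the same separation of ASO10, with smaller values.

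Stress-gene regions were wider than most gene ends, with a median of 1440 bases against 1010, and held more counts per region, with a median of 24.5 CPM against 14.0 that is not corrected for width. The difference under ASO10 grew with abundance in gene ends generally. Compared with other gene-end regions in the same step of 1 log2 CPM, 22 of the 35 regions lay above the median and 18 above the upper quartile under ASO10, and 17 and 7 under ASO2. Between 4 and 5 log2 CPM, where 16 of the 35 fell, the ASO10 median was 0.31 against 0.11 for the others, and 11 of the 16 were above the upper quartile. From 5 to 6 log2 CPM the medians were 0.29 and 0.17, and from 3 to 4 they were 0.07 and 0.07. When the fit removed the trend with abundance (loess offsets), the ASO10 medians became 0.14 and 0.02, with 17 of 35 still above the upper quartile of their step. The members were not chosen on this contrast, but they were chosen with results of these data known, and no test of the list as a whole was made.

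**Figure D1:**
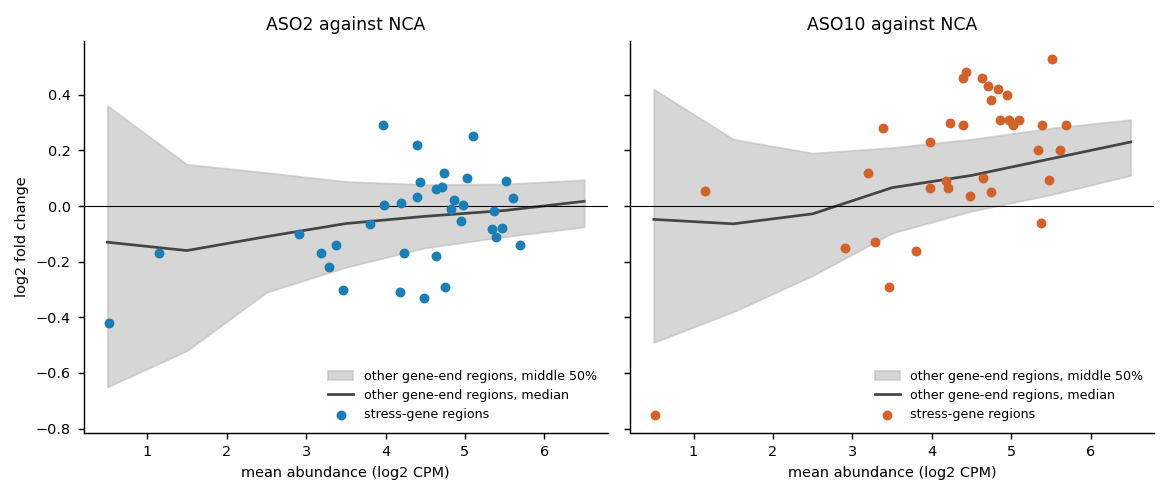
Log2 fold change against NCA (vertical axis) by mean abundance in log2 CPM (horizontal axis) for ASO2 on the left and ASO10 on the right; points are the 35 stress-gene gene-end regions, the line is the median of other gene-end regions and the band their middle 50%. Under ASO10, 18 points lie above the band, and under ASO2 7 do.

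Among the transcription factors, the region of ATF4 (chr22:39519567-39521025, covering the gene start), the central activator of the program, measured 22.3, 22.2 and 24.2 CPM in NCA, 25.0, 25.1 and 22.1 in ASO2 and 31.2, 27.2 and 34.0 in ASO10. All ASO10 libraries were above all NCA and ASO2 libraries, while ASO2 and NCA overlapped. How often libraries separate in this way at other gene ends was not computed, for this gene or those below. Such separation is therefore not shown to be particular to stress genes. The log2 difference was 0.43 (SE 0.136, edgeR adjusted p = 0.101) under ASO10 and 0.07 (SE 0.138, adjusted p = 0.866) under ASO2, neither passing the test.

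At DDIT3, which encodes the pro-apoptotic factor CHOP, the start region (chr12:57519566-57521065, also at an end of MBD6 and LOC128125814) measured 48.3, 45.5 and 53.4 CPM in NCA, 38.9, 48.5 and 45.9 in ASO2 and 60.1, 62.0 and 58.3 in ASO10. The ASO10 libraries did not overlap either group, and they averaged 60.1 ± 1.84 CPM (SD, n = 3) against 49.1 ± 4.02 in NCA and 44.4 ± 4.98 in ASO2. Against NCA the log2 difference under ASO10 was 0.29 (SE 0.114) and did not pass (edgeR adjusted p = 0.246). Reads here cannot be assigned to DDIT3 alone, since 3 gene ends share the region.

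CEBPB, a C/EBP partner of ATF4, measured 38.6, 44.5 and 36.1 CPM in NCA, 38.6, 36.7 and 35.1 in ASO2 and 50.7, 45.9 and 49.2 in ASO10 (chr20:50190218-50192446, at the gene start). ASO10 was again above every other library, with a log2 difference from NCA of 0.29 (SE 0.119, edgeR adjusted p = 0.294). CEBPG, whose product pairs with ATF4, measured 25.3, 20.9 and 24.2 CPM in NCA, 23.4, 30.8 and 22.1 in ASO2 and 30.6, 26.7 and 34.5 in ASO10. One ASO2 library reached the ASO10 range, and neither difference from NCA passed (log2 0.38 under ASO10, edgeR adjusted p = 0.17, and 0.12 under ASO2, adjusted p = 0.734). The region at ATF5, a mitochondrial stress factor, also lies at the ends of IL4I1 and NUP62 and had a log2 difference of 0.29 under ASO10 and 0.10 under ASO2. All 5 factor regions were thus above zero under ASO10, with a median of 0.29 and unadjusted p under 0.05 at each, and none passed the adjusted test. The same 5 had a median of 0.07 under ASO2, with 3 above zero. Under ASO10, other gene ends of 5 to 6 log2 CPM, where DDIT3, CEBPB and ATF5 fell, had a median of 0.17 and upper quartile of 0.28. From 4 to 5 log2 CPM, where ATF4 and CEBPG fell, these were 0.11 and 0.24. With loess offsets the ASO10 values were 0.14 at DDIT3 and CEBPB, 0.16 at ATF5, 0.31 at ATF4 and 0.27 at CEBPG. The upper quartiles of others were then 0.13 and 0.15.

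**Figure D2:**
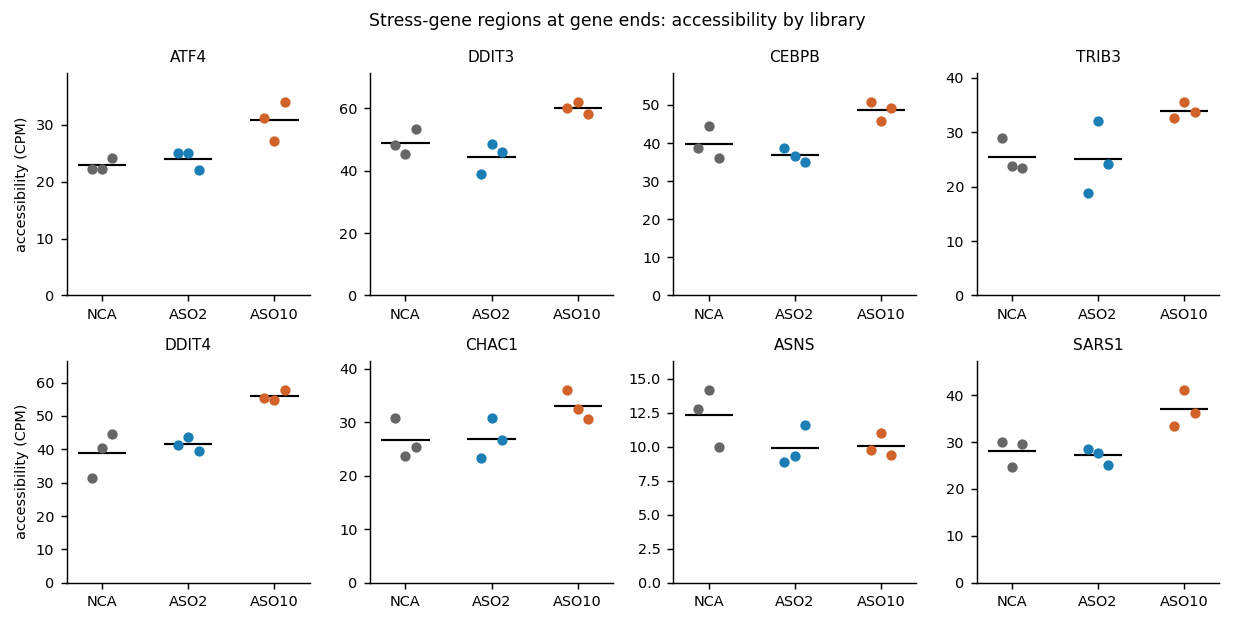
Accessibility in CPM (vertical axes, starting at 0) of 8 gene-end regions in each of the 9 libraries; points are libraries and bars are group means. The 3 ASO10 libraries lie above the other 6 at ATF4, DDIT3, CEBPB, TRIB3, DDIT4 and SARS1, but not at CHAC1 or ASNS. The share of other gene-end regions with such separation was not computed.

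The kinase, feedback and signalling genes had the highest median of the 6 roles under ASO10, 0.46 over 7 regions, against 0.06 under ASO2. DDIT4, which encodes REDD1, an inhibitor of mTORC1, held the only gene-end region called under ASO10. It measured 31.4, 40.3 and 44.6 CPM in NCA, 41.3, 43.6 and 39.4 in ASO2 and 55.5, 54.8 and 57.9 in ASO10 (chr10:72272634-72274390). ASO10 stood above both other groups in all libraries, and accessibility rose by 0.53 on the log2 scale (SE 0.117, edgeR adjusted p = 0.00275), from 38.8 ± 6.71 to 56.1 ± 1.64 CPM (SD, n = 3). ASO2 differed from NCA by 0.09 (SE 0.119, adjusted p = 0.771). The ASO10 call was lost without NCA replicate 1, the lowest library (edgeR adjusted p = 0.211), and without ASO10 replicate 3 (adjusted p = 0.0577).

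The 250 bases before the DDIT4 start (chr10:72273674-72273923, plus strand, RefSeq GRCh38.p14) lie inside this region and are shown because it is the gene-end region that rose. None of the 4 motifs searched above is in its promoter window, which says only that those letters are not there.

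DDIT4: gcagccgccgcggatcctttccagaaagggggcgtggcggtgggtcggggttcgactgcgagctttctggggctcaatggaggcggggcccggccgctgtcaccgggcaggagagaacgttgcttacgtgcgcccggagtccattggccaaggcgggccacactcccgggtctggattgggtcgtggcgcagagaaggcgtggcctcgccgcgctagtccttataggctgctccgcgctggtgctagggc

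TRIB3, a pseudokinase that dampens ATF4 and AKT signalling, measured 28.9, 23.8 and 23.5 CPM in NCA, 18.8, 32.1 and 24.1 in ASO2 and 32.6, 35.5 and 33.7 in ASO10 (chr20:380385-382372, at the gene start). ASO10 was above every other library, whereas ASO2 spread across the NCA range on both sides. The ASO10 difference was 0.42 (SE 0.132, edgeR adjusted p = 0.0909) and the ASO2 difference -0.01 (SE 0.134, adjusted p = 0.981).

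SESN2, a leucine sensor that restrains mTORC1, measured 16.2, 20 and 19.2 CPM in NCA, 19.5, 19.3 and 20.1 in ASO2 and 24.4, 28 and 24.9 in ASO10 (chr1:28258936-28260747). PPP1R15A had a region at its start (chr19:48872005-48873589) with 19.6, 18.7 and 26.1 CPM in NCA, 25.1, 22.8 and 19.8 in ASO2 and 27.0, 29.6 and 32.2 in ASO10. At both genes ASO10 did not overlap the other groups and the difference from NCA did not pass, with log2 values of 0.48 (edgeR adjusted p = 0.0735) and 0.46 (adjusted p = 0.0705). The second PPP1R15A region, at the other end of this short gene, had the same log2 value of 0.46 (adjusted p = 0.0992). SESN2 was called by DESeq2 (adjusted p = 0.0423), and the PPP1R15A start, SESN2 and TRIB3 were called when only the ASO10 and NCA libraries were fitted. Of 16 alternative settings, the PPP1R15A start was called in 4, SESN2 in 3 and TRIB3 in 2. With loess offsets none of them passed (edgeR adjusted p = 0.186, 0.171 and 0.258).

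CHAC1, which degrades glutathione and whose promoter match is shown above, measured 30.8, 23.7 and 25.4 CPM in NCA, 23.4, 30.8 and 26.6 in ASO2 and 36.1, 32.5 and 30.5 in ASO10 (chr15:40952802-40953926). The lowest ASO10 library fell within the range of the others, and the difference from NCA was 0.31 (SE 0.131, edgeR adjusted p = 0.312). EIF2AK3, the upstream kinase, had log2 values near zero, -0.06 (SE 0.12, adjusted p = 0.905) under ASO10 and -0.02 (SE 0.12, adjusted p = 0.966) under ASO2.

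**Figure D3:**
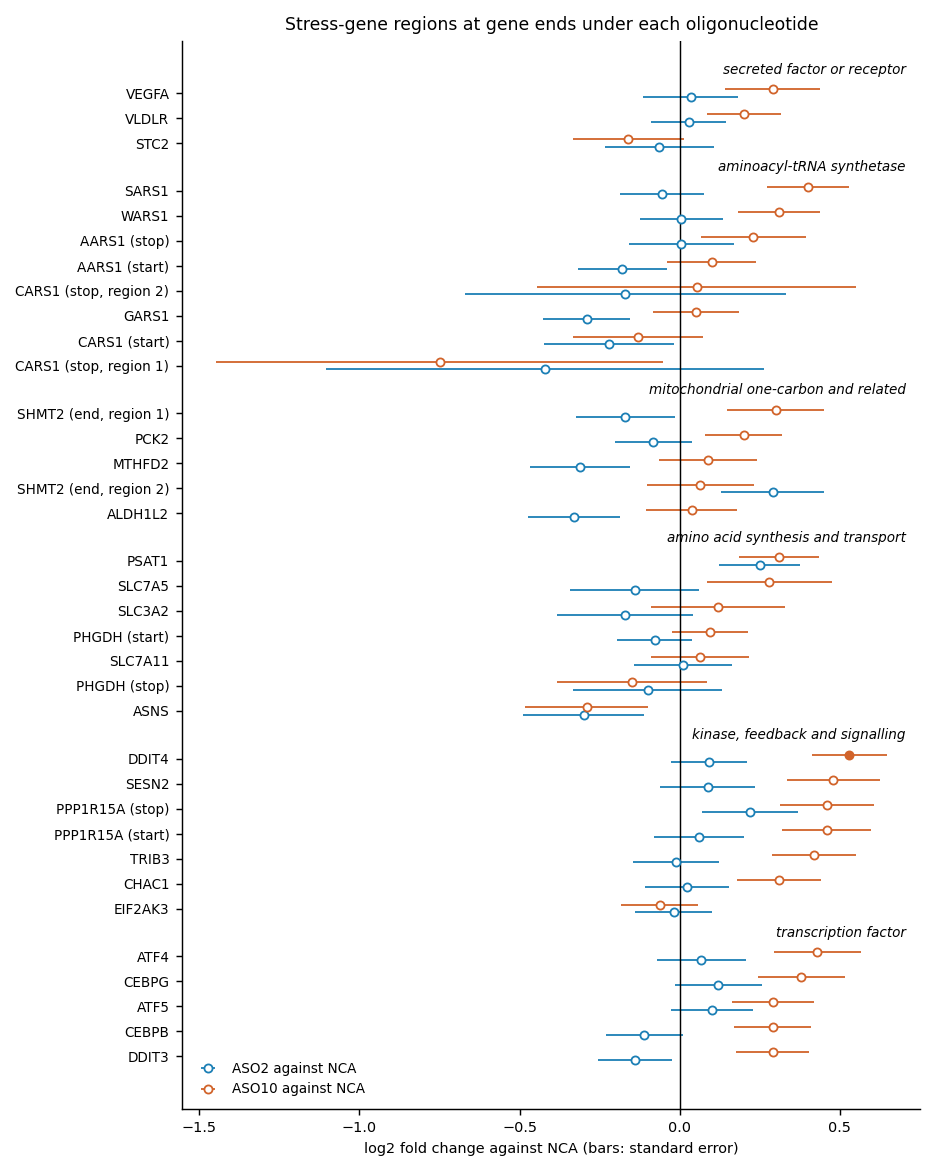
Log2 fold change against NCA (horizontal axis, bars are standard errors) of each of the 35 gene-end regions, grouped by role; open points did not pass the adjusted test and filled points did. The 1 filled point is DDIT4 under ASO10, and the transcription factor regions and all but 1 of the kinase and feedback regions are above zero under ASO10.

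The enzymes and transporters of amino acid supply were closer to NCA. Their 7 regions had a median log2 difference of 0.10 under ASO10 and -0.10 under ASO2, and none passed the test. ASNS, asparagine synthetase and a standard ATF4 target, measured 12.8, 14.2 and 9.98 CPM in NCA, 8.84, 9.34 and 11.6 in ASO2 and 9.74, 11 and 9.38 in ASO10 at its outermost end (chr7:97928101-97929022). The groups overlapped, with log2 values of -0.30 under ASO2 (SE 0.19, edgeR adjusted p = 0.45) and -0.29 under ASO10 (SE 0.192, adjusted p = 0.634). The region over the ASNS start listed in RefSeq, which holds the TGATGAAA match shown above, counted as flanking (chr7:97871863-97872964). It measured 39.2, 32.8 and 40.3 CPM in NCA, 34.7, 42.8 and 34.1 in ASO2 and 33.5, 37.2 and 32.4 in ASO10, again with overlap, and its ASO10 difference was -0.12 (edgeR adjusted p = 0.793).

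PSAT1, an enzyme of serine synthesis, measured 29.6, 33.0 and 26.8 CPM in NCA, 37.0, 37.0 and 32.7 in ASO2 and 39.2, 33.6 and 37.8 in ASO10. Only ASO10 was free of overlap with NCA, and the log2 values of 0.25 under ASO2 (edgeR adjusted p = 0.285) and 0.31 under ASO10 (adjusted p = 0.3) did not pass. PHGDH, the first enzyme of the same pathway, had a start region with log2 values of -0.08 and 0.10, and a weaker region at its other end with 6.96, 9.96 and 6.24 CPM in NCA, 5.89, 7.94 and 7.52 in ASO2 and 5.51, 7.17 and 8.2 in ASO10, where all groups overlapped. The subunits of the cystine exchanger, SLC7A11 and SLC3A2, had ASO10 values of 0.06 and 0.12, and the leucine transporter SLC7A5 0.28, none passing.

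Most regions of the mitochondrial one-carbon enzymes had values below NCA under ASO2, none of which passed the test. Their 5 regions had a median of -0.17 under ASO2 and 0.09 under ASO10. MTHFD2, a dehydrogenase of the folate cycle, measured 20.4, 13.4 and 22.4 CPM in NCA, 13.5, 17.2 and 14.4 in ASO2 and 19.5, 21.0 and 19.3 in ASO10. The low second NCA library overlapped ASO2, whose log2 difference was -0.31 (SE 0.156, edgeR adjusted p = 0.281). ALDH1L2, which oxidises formyl-tetrahydrofolate, measured 24.9, 22.1 and 23.3 CPM in NCA, 20.8, 17.4 and 17.9 in ASO2 and 24.6, 22.4 and 25.0 in ASO10. All ASO2 libraries were below all others there, with a log2 difference from NCA of -0.33 (SE 0.145, adjusted p = 0.195).

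SHMT2, the mitochondrial serine hydroxymethyltransferase, had a region at each end. The first (chr12:57229457-57230409) measured 20, 17.4 and 16.0 CPM in NCA, 18.8, 16.0 and 13.0 in ASO2 and 25.2, 19.7 and 20.8 in ASO10. The second (chr12:57234788-57235657), shared with COXFA4L2, measured 14.9, 12.5 and 15.1 in NCA, 15.4, 20.5 and 16.0 in ASO2 and 16.7, 13.7 and 14.2 in ASO10. The ends thus differed in which group was highest, and neither passed against NCA (edgeR adjusted p from 0.369 to 0.931). PCK2, mitochondrial phosphoenolpyruvate carboxykinase, had the highest NCA level per length of the 35 regions, 34.8 CPM per kb, with log2 values of -0.08 under ASO2 and 0.20 under ASO10.

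Aminoacyl-tRNA synthetases load amino acids onto tRNAs, and several are ATF4 targets. Their 8 regions had a median of 0.08 under ASO10 and -0.18 under ASO2. SARS1, for serine, measured 30.0, 24.7 and 29.6 CPM in NCA, 28.6, 27.6 and 25.2 in ASO2 and 33.5, 41.2 and 36.3 in ASO10 (chr1:109213328-109215289). ASO10 was above all others, with a log2 difference from NCA of 0.40 that did not pass (SE 0.128, edgeR adjusted p = 0.107). GARS1, for glycine, was 26.5, 27.5 and 30.1 CPM in NCA, 22.7, 22.4 and 23.4 in ASO2 and 30.0, 25.5 and 31.8 in ASO10. Here ASO2 was the group that stood apart, below every other library, with a log2 difference of -0.29 (SE 0.136, adjusted p = 0.228).

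WARS1, for tryptophan, and AARS1, for alanine, had ASO10 values of 0.31 and 0.10 at their starts, in regions shared with WDR25 and DDX19B. CARS1, for cysteine, had 3 regions, of which the smallest (chr11:3000503-3000663, 160 bases) measured 0.902, 2.02 and 1.7 CPM in NCA, 1.68, 1.29 and 0.55 in ASO2 and 0.586, 1.37 and 0.781 in ASO10. Its log2 value of -0.75 under ASO10 was the lowest of the 35 and carried a standard error of 0.699, so at this depth no difference was detectable (edgeR adjusted p = 0.767). Of the secreted factors and receptors, STC2, a glycoprotein hormone, measured 16.2, 13.9 and 13.0 CPM in NCA, 16.0, 13.8 and 11.7 in ASO2 and 13.8, 11.7 and 13.0 in ASO10, with overlap throughout. VEGFA, the vascular growth factor, and VLDLR, a lipoprotein receptor, had ASO10 values of 0.29 and 0.20, neither passing.

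Compared directly, 5 of the 35 gene-end regions passed the test between ASO2 and ASO10, all lower under ASO2: DDIT4, DDIT3, CEBPB, SARS1 and TRIB3. Lower calls made up 2.91% of the other gene-end regions, 4.98% of those of 4 to 6 log2 CPM and 0.682% of all tested regions. The log2 difference of ASO2 from ASO10 was -0.44 at DDIT4 (SE 0.116, edgeR adjusted p = 0.0106), -0.43 at DDIT3 (SE 0.114, adjusted p = 0.00947) and -0.45 at SARS1 (SE 0.128, adjusted p = 0.0204). It was -0.40 at CEBPB (SE 0.119, adjusted p = 0.0297) and -0.43 at TRIB3 (SE 0.131, adjusted p = 0.0363). The TRIB3 call was lost with DESeq2 (adjusted p = 0.107) and the CEBPB call with a replicate block (0.0541). At all 5 the 3 ASO10 libraries lay above the 3 ASO2 libraries. This is no further evidence, since the test that picked the 5 used the same libraries. Regions that did not pass, such as those of ATF4 and SESN2, were also free of overlap between ASO2 and ASO10.

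At an unadjusted p under 0.05, 18 of the 35 (51.4%) were lower under ASO2 and none higher, against 17.8% lower and 2.14% higher among other gene-end regions, and the median was -0.28 against -0.15 for other gene-end regions. These others are of every abundance, and their share at this level among regions of like abundance was not computed. The region at the first SHMT2 end had the lowest value, -0.47 (SE 0.152), and just missed the threshold (edgeR adjusted p = 0.0554). With the trend with abundance removed none of the 5 passed, with adjusted p from 0.0845 at SARS1 to 0.228 at CEBPB, and the median became -0.19. Leaving out ASO10 replicate 1, 2 or 3 or ASO2 replicate 3 left 1 of the 5 calls each time, and leaving out ASO2 replicate 1 left none of them while the first SHMT2 region then passed (edgeR adjusted p = 0.0418).

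Away from the gene ends, 251 of the 272 flanking regions were tested, and 44 of the 272 lay at an end of another gene. The 209 tested regions at no gene end had median log2 differences of -0.05 under ASO2 and -0.03 under ASO10, beside 0.23 at the gene ends under ASO10. The 42 tested flanking regions at an end of another gene had medians of -0.06 and 0.16, and under ASO10 32 of them (76.2%) were above zero and 13 had an unadjusted p under 0.05, all higher. Ends of neighbouring genes thus leaned the same way under ASO10 as the stress-gene ends. Under ASO2, 7 of the 251 flanking regions passed, 6 of them at no gene end. The test called 5.45% of regions at no gene end near other protein-coding genes. Under ASO10 8 passed, all higher, 5 of them at no gene end, against 0.581% called higher in that background. Between ASO2 and ASO10 10 passed, 9 of them at no gene end, against 2.98%. The background regions had a median of 2.36 CPM, and their shares at like abundance were not computed. All 5 ASO10 regions at no gene end held more than this median. Among other gene ends, higher calls under ASO10 were more frequent at 4 to 6 log2 CPM (3.64%) than at every abundance (2.02%). The 0.581% is therefore not a rate matched to these 5 regions.

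The ASO2 calls with the smallest adjusted p lay near genes whose own ends had log2 values near zero. Inside WARS1, 13.7 kb from its start, a region (chr14:100362317-100362913) measured 3.61, 2.52 and 2.84 CPM in NCA, 7.44, 8.37 and 10.1 in ASO2 and 3.52, 5.92 and 1.95 in ASO10. ASO2 was above all other libraries, and accessibility rose by 1.54 on the log2 scale (SE 0.286, edgeR adjusted p = 1.2e-05). Inside SLC7A11 (chr4:138235271-138236197) the values were 4.9, 4.92 and 3.18 in NCA, 11.4, 12.9 and 8.44 in ASO2 and 3.4, 3.64 and 5.21 in ASO10, with the same separation of ASO2 from the rest. The rise there was 1.33 (SE 0.249, adjusted p = 1.4e-05), beside 0.01 at the SLC7A11 gene-end region.

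Upstream of VLDLR by 47.4 kb, a region (chr9:2574034-2574703) measured 11.5, 10.3 and 11.1 CPM in NCA, 19.1, 22.4 and 19.5 in ASO2 and 14.1, 12.9 and 14.5 in ASO10. ASO2 rose by 0.89 (SE 0.166, edgeR adjusted p = 1.2e-05), and ASO10 lay between the other groups without passing (0.33, adjusted p = 0.493). Further rises under ASO2 had larger adjusted p. They lay inside EIF2AK3 (1.54, SE 0.492, adjusted p = 0.0364), 10.3 kb upstream of SESN2 (0.52, SE 0.164, adjusted p = 0.0321) and upstream of TRIB3. The EIF2AK3 call was lost without ASO2 replicate 2 or 3 or any 1 NCA library (adjusted p from 0.0553 to 0.246), and the SESN2 call without ASO2 replicate 2 (0.528), NCA replicate 2 (0.249) or NCA replicate 3 (0.0658), with DESeq2 (0.161) and with a replicate block (0.0506). The 1 region that fell, by 0.60 (SE 0.153, adjusted p = 0.00352), is in the DDIT3 flank but lies at an end of DCTN2. The WARS1, SLC7A11, VLDLR and DCTN2 calls held under all 16 alternative settings, leaving out each library included.

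**Figure D4:**
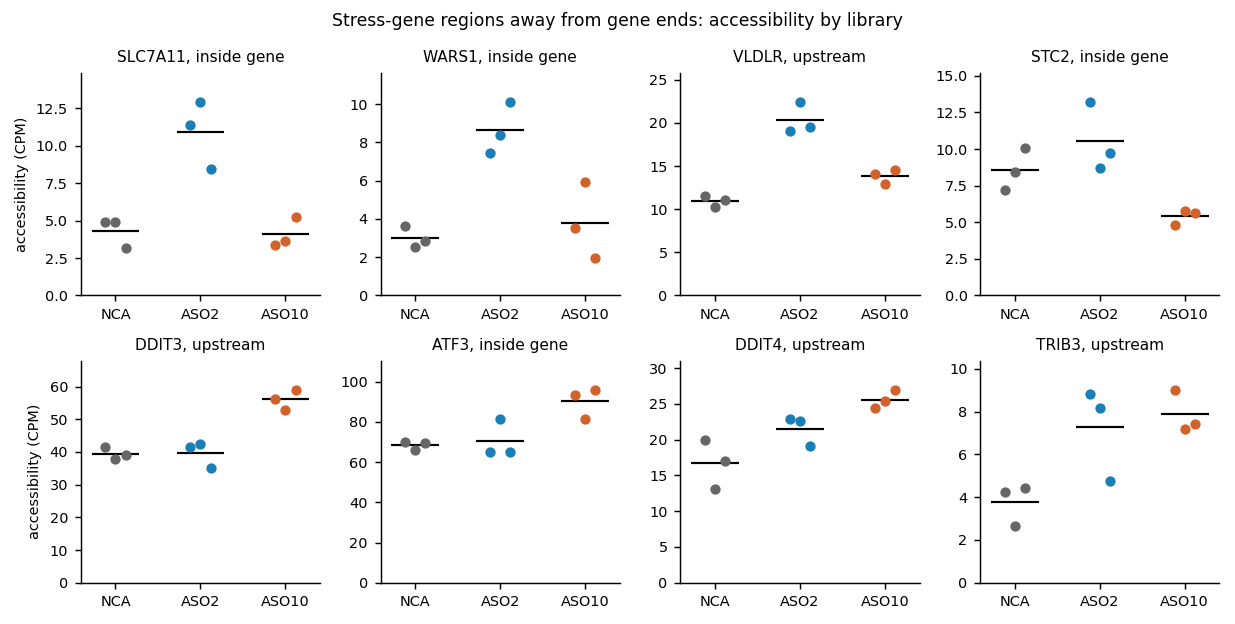
Accessibility in CPM (vertical axes, starting at 0) of 8 flanking regions in each of the 9 libraries; points are libraries and bars are group means. ASO2 is highest at SLC7A11, WARS1 and VLDLR, ASO10 at DDIT3, ATF3 and DDIT4, and both exceed NCA at TRIB3.

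Of the 8 flanking calls under ASO10, 4 lay around DDIT3, DDIT4 and TRIB3. A region 1.91 kb upstream of DDIT3, within MBD6 (chr12:57521789-57523066), measured 41.4, 37.7 and 39.0 CPM in NCA, 41.4, 42.4 and 35 in ASO2 and 56.3, 52.8 and 59.1 in ASO10. ASO10 was above all others and rose by 0.51 (SE 0.118, edgeR adjusted p = 0.00486), a call lost without ASO10 replicate 1 (adjusted p = 0.0524), ASO10 replicate 3 (0.0991) or NCA replicate 2 (0.0561). Near DDIT4, a region 13.3 kb upstream (chr10:72259739-72261584) measured 20, 13.1 and 17.0 in NCA, 22.9, 22.6 and 19.1 in ASO2 and 24.4, 25.4 and 27.0 in ASO10. Here too ASO10 stood above the rest, with a rise of 0.61 (SE 0.147, adjusted p = 0.00804) that was lost without ASO10 replicate 3 (0.0956) or NCA replicate 2 (0.216).

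A further region in the DDIT4 flank, 46.5 kb downstream of its start and nearer to DNAJB12 (chr10:72319423-72321382), measured 40.8, 37.8 and 35.3 CPM in NCA, 36.9, 44.6 and 36.7 in ASO2 and 52.8, 54.2 and 54.8 in ASO10. ASO10 did not overlap the others and rose by 0.51 (SE 0.118, edgeR adjusted p = 0.00589), which was lost without ASO10 replicate 3 (adjusted p = 0.0713) or NCA replicate 3 (0.0917) and with the abundance trend removed (0.0547). The region 6.91 kb upstream of TRIB3 (chr20:373513-374184) was called under both oligonucleotides. It measured 4.25, 2.65 and 4.43 CPM in NCA, 8.84, 8.16 and 4.77 in ASO2 and 9.03, 7.17 and 7.42 in ASO10, all 6 above NCA, with rises of 0.92 (SE 0.264, adjusted p = 0.0142) and 1.05 (SE 0.263, adjusted p = 0.0129) against the same NCA libraries. Both calls were lost without NCA replicate 2, the lowest library, with adjusted p of 0.175 and 0.183. The ASO2 call was also lost without ASO2 replicate 1 (0.146) or 2 (0.123) and with DESeq2 (0.0547), and the ASO10 call without ASO10 replicate 1 (0.156).

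ATF3, the stress-induced factor with no gene-end region, had its strongest region within the gene, 43.5 kb from its outermost start (chr1:212607855-212609868). The rule uses only the outermost ends of a gene, and whether this region covers another ATF3 start was not determined. It measured 70.0, 65.9 and 69.6 CPM in NCA, 64.8, 81.2 and 64.9 in ASO2 and 93.2, 81.5 and 96.1 in ASO10. ASO10 was above all others and rose by 0.40 (SE 0.105, edgeR adjusted p = 0.0234), a call that did not pass with the abundance trend removed (adjusted p = 0.282) or without any 1 of the NCA libraries, ASO10 replicate 1 or ASO10 replicate 3 (0.0884 to 0.272). The other 3 ASO10 calls lay at ends of neighbouring genes: NUCB1 near PPP1R15A (0.66, adjusted p = 0.0207), WDR74 near SLC3A2 (0.45, adjusted p = 0.0331), and DCAF11 and NRL near PCK2 (0.40, adjusted p = 0.0231), each lost without ASO10 replicate 3 (0.209, 0.175 and 0.212). Of 16 alternative settings the PPP1R15A-flank call held in 12, the SLC3A2-flank call in 6 and the PCK2-flank call in 8, and the last 2 were lost with loess offsets (0.178 and 0.265) and a replicate block (0.0644 and 0.0586). Without ASO10 replicate 3 or without NCA replicate 2, 1 of the 8 ASO10 flanking calls was made.

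**Figure D5:**
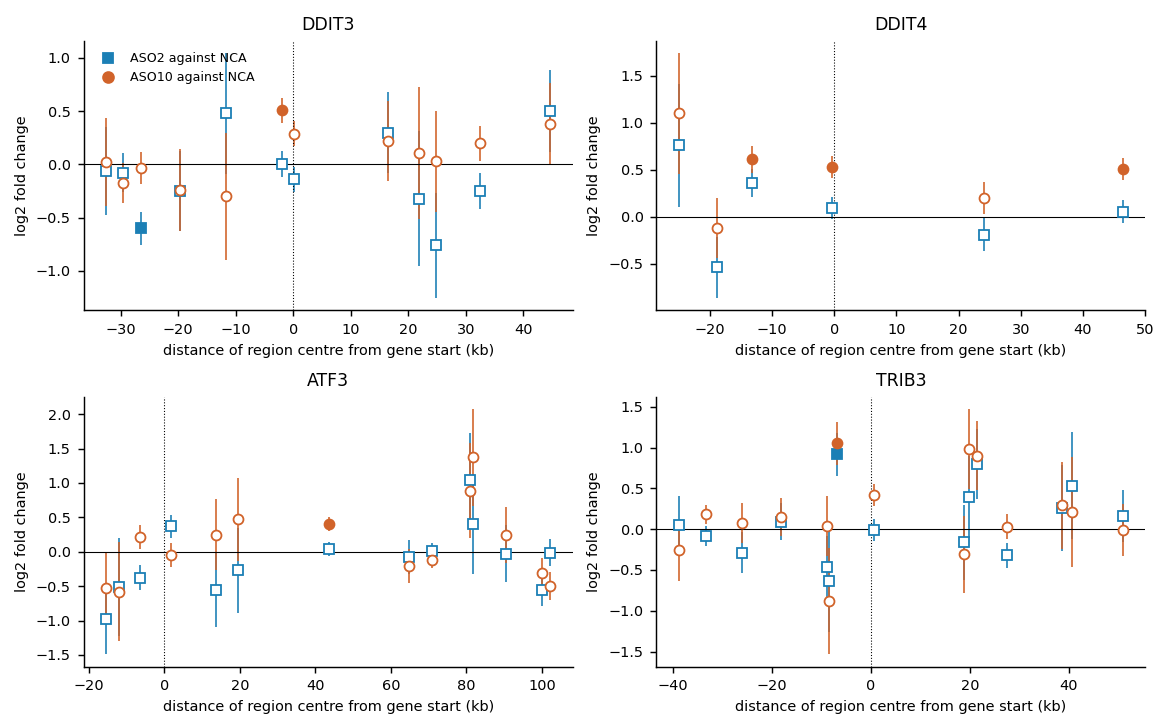
Log2 fold change against NCA (vertical axes, bars are standard errors) of tested regions around DDIT3, DDIT4, ATF3 and TRIB3 by distance of the region centre from the gene start in kb (horizontal axes); squares are ASO2, circles ASO10, and filled symbols passed the adjusted test. At DDIT4 the filled ASO10 symbols lie 13.3 kb upstream, at the start and 46.5 kb downstream, and no ASO2 symbol there is filled.

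The 10 flanking differences between ASO2 and ASO10 were split, with 5 higher and 5 lower under ASO2. The regions inside SLC7A11 (1.41, SE 0.251, edgeR adjusted p = 8.9e-06) and WARS1 (1.18, SE 0.276, adjusted p = 0.00235) were higher under ASO2, and the DDIT3 region within MBD6 was lower (-0.50, SE 0.117, adjusted p = 0.0019). The SLC7A11 and DDIT3 differences held under all 16 alternative settings, and the WARS1 difference was lost without ASO10 replicate 3 (adjusted p = 0.116) or ASO2 replicate 3 (0.0617). A region inside STC2 (chr5:173315625-173316283) measured 13.2, 8.69 and 9.73 CPM in ASO2 and 4.81, 5.8 and 5.6 in ASO10, without overlap, and was higher by 0.95 (SE 0.225, adjusted p = 0.0027). The regions near VLDLR (0.56) and SHMT2 (1.34, in LRP1) were also higher under ASO2. Of the lower ones, 2 were at ATF3 (-0.36 and -0.59), 1 in the DDIT4 flank (-0.45) and 1 at the end of DCTN2 (-0.56). Each of these 6, and the STC2 difference, was lost without at least 1 library, with adjusted p of up to 0.0931 at STC2, 0.165 near VLDLR, 0.176 near SHMT2, 0.235 and 0.244 at ATF3, 0.106 in the DDIT4 flank and 0.0779 at DCTN2.

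A wider list of 45 further genes of the integrated stress and unfolded protein responses had 49 tested gene-end regions for 42 genes. None passed under ASO2 or ASO10 by edgeR's quasi-likelihood test or DESeq2, and 3 (6.12%) and 10 (20.4%) had an unadjusted p under 0.05, against 10.4% and 17.2% of other gene-end regions. The median log2 differences were -0.03 under ASO2 and 0.15 under ASO10, with 36 of 49 (73.5%) above zero under ASO10, against 62.5% of other gene-end regions. These regions held more counts than other gene ends, with a median of 23.3 CPM against 14.0. With loess offsets their ASO10 median became 0.036, against 0.016 for the others, with 28 of 49 above zero. In the direct comparison 2 of 49 were lower under ASO2, where 2.91% of other gene-end regions were called lower: NIBAN1 (-0.66, edgeR adjusted p = 0.0148), a stress-induced translation regulator, and LONP1 (-0.70, adjusted p = 0.0302), the mitochondrial matrix protease, the latter at the end of its gene shared with RPL36, where the libraries of the 2 groups overlapped. DESeq2 called neither.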

How the data were processed

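ATAC-seq counts were analysed for 9 SK-N-BE(2)c libraries, 3 each of NCA, ASO2 and ASO10, grouped by their treatment labels. The authors deposited whole-number counts per region for a single set of 148797 regions shared by all libraries. Per the submitters' processing notes the tools included FastQC, Bowtie2 2.2.6, SAMtools, MACS2 2.1.2 and DESeq2 1.42.0, on hg38/GRCh38; read filters, the shift of Tn5 cut sites and the counting unit are not given in the sources used here. The notes list tools without roles, and how far the regions depend on each group's peaks is not known.

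Regions were joined to gene ends from a RefSeq gene table of GRCh38 by their centres. Counts were fitted with edgeR 4.0.16 in R 4.3.3 (TMM factors, low counts filtered by group, robust quasi-likelihood test, 1 term per group, all 9 libraries), with Benjamini-Hochberg adjustment over 119417 tested regions and a threshold of 0.05; the spread between libraries, as the biological coefficient of variation, was 23.5%. Values are CPM scaled by TMM factors, and levels were compared between genes only per kb. Members and lists were chosen with earlier results of these data known.

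Named regions were ATF4, DDIT3, ASNS, CHAC1 and TRIB3, every called gene-end region, the 4 highest and 4 lowest per comparison, and the 3 flanking regions of smallest adjusted p per comparison; others were named after their values were seen. A gene's region of highest mean CPM stood for it, unless another of its regions was among those extremes. Alternatives were DESeq2 1.42.0, RLE size factors in place of TMM factors, loess offsets on abundance, all regions unfiltered and a minimum of 10 counts in each library. Further alternatives were a fit of only the groups compared, a replicate block, a window of 500 bases and each library left out. Chosen after seeing the data were the strongest region per gene, regions at no end of another gene and regions at a listed start. Libraries of a group differed beyond sampling noise. The procedure was tested on simulated data for ASO10 against NCA, with 200 regions changed by 1 log2 unit. After the count filter 113413 regions were tested. Of the changed regions that stayed among them 34% were recovered, and 91.1% of the 56 above 3 log2 CPM. Of the 69 calls made, 5 were false. Recovery of smaller changes was not simulated, and all stress-gene gene-end differences were smaller than 1 log2 unit. One marker gene of the cell line is not reported here.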

Additional observations from a re-analysis of the deposited data

Results flagged for a closer look

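The test of the difference between the oligonucleotides picked out 5 gene-end regions of the stress genes (DDIT4, DDIT3, CEBPB, SARS1 and TRIB3, all lower under ASO2) and 10 flanking regions, 5 of them higher and 5 lower under ASO2. With loess offsets on abundance the 5 gene-end values were between -0.33 and -0.24 on the log2 scale and none passed. Against other gene-end regions of the same abundance, 18 of the 35 stress-gene regions lay below the lower quartile in this comparison, and 15 of 35 with loess offsets.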

How the results depend on the processing

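Of 94 results under their alternatives, 1523 pairs in all, 1322 were unchanged. For named regions this meant the same direction and side of the threshold, in 1185 of 1352 pairs. For counts and medians it meant a change within a set margin. The gene-end count under ASO2 was 0 in every setting run. The ASO10 gene-end count of 1 became 2 with DESeq2, 4 with at least 10 counts in every library and 4 with only the groups compared, and ran from 0 to 2 with 1 library left out. The ASO10 median of 0.23 became 0.14 with loess offsets, 0.28 with a window of 500 bases, 0.29 with the strongest region per gene and 0.28 at listed starts. The ASO10 flanking count of 8 became 4 with loess offsets and ran from 1 to 8 with 1 library left out, the ASO2 flanking count from 4 to 7. In the direct comparison the gene-end count of 5 became 0 with loess offsets, 3 without a filter and 3 with the 500-base window, and ran from 1 to 5; the median became -0.19 with loess offsets, and flanking calls ran from 3 to 10. With loess offsets 3 small differences changed sign: ALDH1L2 under ASO10 (-0.061), and the second PHGDH region (-0.041) and PSAT1 (0.081) between the oligonucleotides. With 1 library left out, small log2 differences that had not passed changed sign. Under ASO2 they ran from -0.042 to 0.21 at DDIT4, -0.082 to 0.13 at CHAC1, -0.044 to 0.22 at CEBPG, -0.035 to 0.23 at the PPP1R15A start, -0.24 to 0.12 at the second PHGDH region, -0.00082 to 0.14 at SESN2, -0.23 to 0.15 at TRIB3 and -0.16 to 0.047 at STC2. Under ASO10 they ran from -0.0067 to 0.09 at ALDH1L2, -0.025 to 0.13 at the second SHMT2 region, -0.28 to 0.072 at the second PHGDH region and -0.1 to 0.25 at MTHFD2. In the direct comparison they ran from -0.0042 to 0.74 at CARS1, -0.097 to 0.18 at the second PHGDH region, -0.0089 to 0.21 at STC2, -0.14 to 0.061 at ASNS and -0.12 to 0.0082 at PSAT1. The causes were not tested. Same-numbered libraries showed no shared deviations (correlations from -0.0363 to 0.0126 for 9 same-numbered pairs). The median tested region held 2.63 CPM, so counting noise weighs on this check and it cannot exclude pairing. With a replicate block the gene-end counts were 0, 1 and 4 and the flanking counts 6, 5 and 9 (ASO2, ASO10, direct). Depth limits regions such as CARS1 at about 1 CPM.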
